A study of Homo sapiens with 8 samples.

Results

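The genes described here fell in HepG2 cells after 12 h of benzo[a]pyrene and showed a smaller deficit, or none, after 24 h. They were chosen from the measured values themselves, as 72 of 19002 genes on the array. A member had a mean log2 level at least 0.8 lower with benzo[a]pyrene than with solvent at 12 h, with both treated arrays below both solvent arrays. The difference between treated and solvent cells had to be at least 0.6 higher at 24 h than at 12 h, and the solvent mean at 12 h had to be at least 5.5. One further gene that met these clauses, ENSG00000173482, was left out by the rule. Because all 4 group means entered the choice, the values below describe the members and no p-value of a member is printed. Counts of members called by limma in the main fit are given beside the share of all genes called. They are a description and not tests of the set. For counts from refits, such as with an array left out or after rescaling, no share of all genes was computed. Those refits show only how far a count moved.

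HepG2 is an established human line grown from a liver tumour, and it keeps part of the enzyme equipment of hepatocytes. Benzo[a]pyrene (BaP) is a combustion product that binds the aryl hydrocarbon receptor, a transcription factor that switches on the monooxygenases that oxidise BaP. Some of the oxidised products attach to DNA bases as bulky adducts, which can stall RNA polymerase until excision repair removes them. The level of a transcript reflects both its synthesis and its decay, and an array of total RNA cannot separate them.

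The 4 groups combined 2 agents with 2 exposure times: HepG2 cells received BaP or its solvent dimethyl sulfoxide (DMSO, at 0.5% per the labels' protocol), and RNA was taken at 12 h or at 24 h, with 2 arrays per group called biological replicates. All groups share the cell line and the culture medium, and no source used here states a dose of BaP. Levels are deposited as log2 values, so that a difference of -1 means that the transcript signal was halved. The files list genes by Ensembl ID, and 0 of the 19002 IDs could be paired with a symbol from the reference table used here. Members are therefore given by ID, with no gene name, function, genome position or promoter sequence, and the liver identity of the cells could not be checked against markers.

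Array medians over all genes lay between 6.64 and 6.68. The control for a transcript taken to be absent reached 4.35, and no member read that low, the lowest member value on any array being 4.69. Array DMSO 24 h replicate 2 stood apart in its 18S ribosomal RNA signal, at 11.3 against 12.6 to 13.1 on the other 7 arrays. The poly-A controls were lower in BaP than in DMSO at 12 h by a mean log2 difference of -0.45, and the corresponding difference at 24 h was 0.12. The 3' minus 5' signal of GAPDH, a measure of RNA integrity, lay between 0.0070 and 0.0510 on the 8 arrays. The same measure for beta-actin was 0.483 on BaP 12 h replicate 1 and 0.237 to 0.364 on the other 7 arrays. The part of the 3' minus 5' signals in the results below was not tested. For the 18S and poly-A signals, counts were redone without DMSO 24 h replicate 2 and after rescaling by the poly-A controls. They are given, or said to have moved, where they moved by more than 1.5 times. That scaling, added after the data were seen, shifts all genes on an array alike. It moves the 12 h difference by 0.45, the 24 h difference by -0.12 and the difference between times by -0.57 (log2). The 2 arrays of a group are shifted unequally. Their mean poly-A signals were 9.61 and 9.31 in BaP 12 h and 9.92 and 9.91 in DMSO 12 h. They were 9.56 and 9.20 in BaP 24 h and 9.45 and 9.08 in DMSO 24 h. The median residual SD of members on the deposited scale was 0.10. Counts called after the scaling can therefore reflect added spread between replicates as well as the shift.

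At 12 h the members covered a wide range of decreases. Their BaP minus DMSO values ran from -2.10 to -0.80 with a median of -1.16 (log2), which corresponds to levels 4.28-fold, 1.74-fold and 2.24-fold lower. Across all genes the median was 0.02. In 51 members the level was at least 2-fold lower. The limma test, with Benjamini-Hochberg adjustment over all 19002 genes, called 72 of the 72 members lower at an adjusted p under 0.05, where it called 4.87% of all genes lower; the rule used this contrast, so nothing is read from the count. After poly-A scaling 43 members were called. The gap between the lowest DMSO array and the highest BaP array ranged from 0.53 to 2.01 over the members (median 1.09). The 2 replicate arrays of a group at 12 h differed by a median of 0.13 in BaP and 0.08 in DMSO. The largest replicate gap, 0.63 between the DMSO arrays of ENSG00000237436, exceeded the gap of 0.54 between the groups of that gene.

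**Figure D1:**
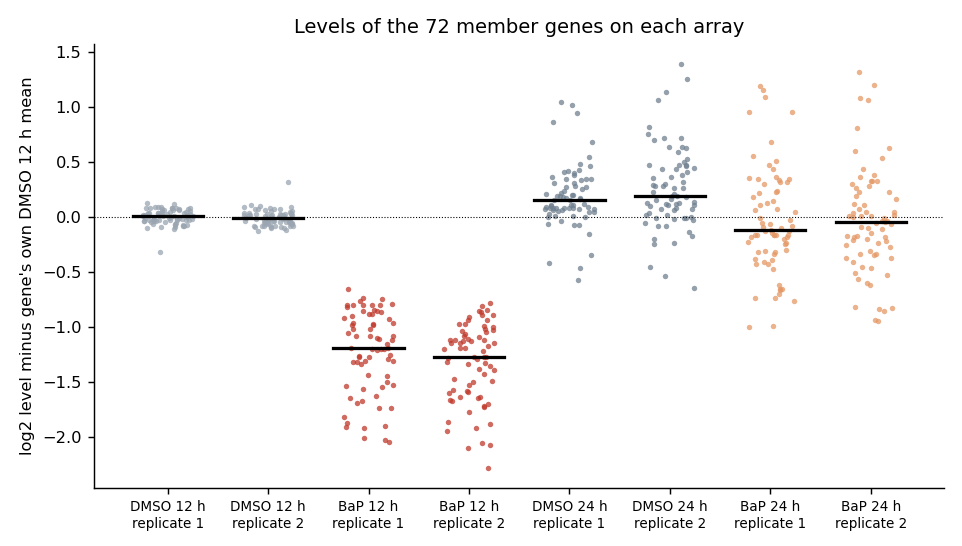
Log2 level of each of the 72 members on each of the 8 arrays, relative to the gene's own mean in DMSO at 12 h; points are genes and bars are medians over genes. The medians were -1.19 and -1.27 on the BaP 12 h arrays, -0.12 and -0.05 on the BaP 24 h arrays, and 0.16 and 0.20 on the DMSO 24 h arrays.

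A few of the deepest decreases show the range of what followed. ENSG00000139173, the member with the lowest 12 h value, read 8.22 and 8.35 in DMSO and 6.37 and 6.01 in BaP at 12 h, then 8.30 and 8.47 in DMSO and 7.62 and 7.91 in BaP at 24 h. The treated arrays lay below the solvent arrays at both times, and the difference was -2.10 ± 0.14 (SE) at 12 h and -0.62 ± 0.14 at 24 h. ENSG00000157985 read 8.70 and 8.66 in DMSO and 6.78 and 6.62 in BaP at 12 h, then 8.68 and 8.60 in DMSO and 8.56 and 8.70 in BaP at 24 h. Its treated and solvent arrays overlapped at 24 h, where the difference was -0.01 ± 0.08, after -1.98 ± 0.08 at 12 h. ENSG00000172915 read 7.33 and 7.28 in DMSO and 5.40 and 5.23 in BaP at 12 h, then 7.72 and 7.94 in DMSO and 6.65 and 6.49 in BaP at 24 h. It kept the largest deficit of the 72 members at 24 h, -1.26 ± 0.10, after -1.99 ± 0.10 at 12 h.

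The other members of the 10 lowest at 12 h split in the same manner. ENSG00000182621 (-1.85 at 12 h and -0.10 at 24 h) was close to solvent at 24 h, with overlapping arrays. ENSG00000133812 (-1.81 and -0.22) had both treated arrays at 24 h (8.10 and 8.11) below both solvent arrays (8.16 and 8.49). ENSG00000002822 (-2.07 and -0.35), ENSG00000144724 (-1.84 and -0.47) and ENSG00000107984 (-1.77 and -0.44) lay between. ENSG00000147202 (-1.95 and -0.98) and ENSG00000145996 (-1.79 and -0.86) kept about 51% and 48% of the log2 decrease.

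**Figure D2:**
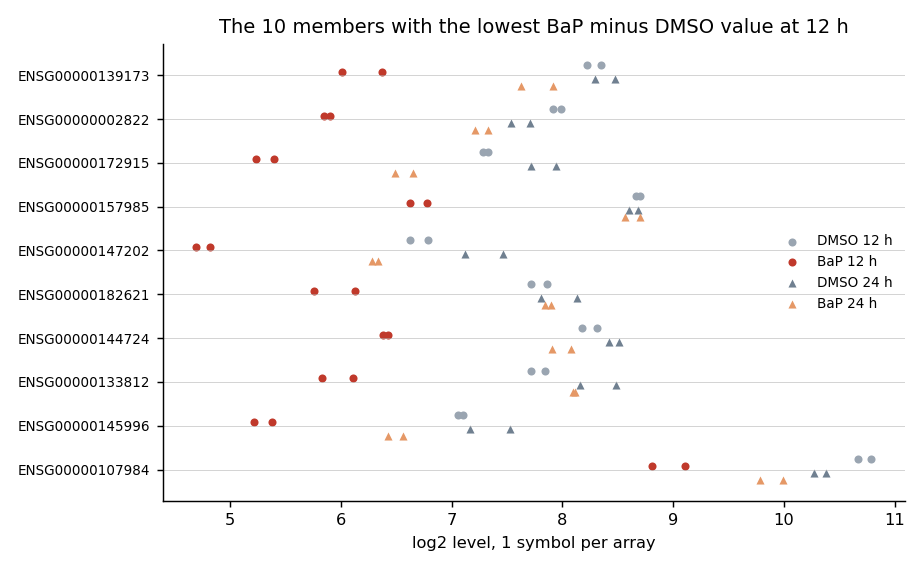
Log2 level on each array (1 symbol per array) of the 10 members with the lowest BaP minus DMSO value at 12 h. The BaP 12 h symbols stand apart to the left in each row, while the BaP 24 h symbols range from overlapping DMSO (ENSG00000157985) to well below it (ENSG00000172915).

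At 24 h the deficit was smaller but had not disappeared from the group as a whole. BaP minus DMSO values ran from -1.26 to 0.28, with a median of -0.24 against 0.01 over all genes. The value was below 0 in 58 members and above 0 in 14. Of the 72, limma called 23 lower and 0 higher at 24 h. Of all genes it called 3.09% lower and 2.97% higher. The 24 h means entered the rule, and these calls describe the members without testing them. The rule asks for a smaller deficit at 24 h and not for its absence, so the set is not described here as falling only early. The authors' deposited table also lists 23 members as lower at a false discovery rate under 0.05 (3.06% of all genes). The count rests on the 24 h arrays: 10 members were called when BaP 24 h replicate 1 was left out, 8 when replicate 2 of that group was, and 9 when DMSO 24 h replicate 2 was. After poly-A scaling 4 were called. Both BaP arrays lay below both DMSO arrays in 46 members (23.5% of all genes) and above them in 9 (25.4% of all genes).

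Graded by size at 24 h, 14 members were at or above 0, 24 were between 0 and -0.25, 23 were between -0.25 and -0.5 and 11 were at -0.5 or lower. Expressed as a share of the 12 h log2 decrease, 40 members had under 25% left, 29 had 25% to 50% left and 3 had more than 50% left. The last are ENSG00000172915 (63.4%), ENSG00000081803 (59.4%) and ENSG00000147202 (50.6%). ENSG00000081803 read 8.52 and 8.49 in DMSO and 6.76 and 6.83 in BaP at 12 h, then 8.78 and 8.80 in DMSO and 7.88 and 7.68 in BaP at 24 h. Its levels rose with time in the treated cells and stayed below solvent on every array.

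The rule ties the 24 h value to the 12 h value, since only members with a deep early decrease can keep a large deficit, so nothing is read from the order of the following groups. Of the 24 members with the deepest decrease at 12 h (-2.10 to -1.42), 13 were called lower at 24 h, with a median 24 h value of -0.44. The 24 in the middle (-1.38 to -1.07) had a median of -0.31, with 9 called. The 24 shallowest (-1.06 to -0.80) had a median of -0.10, with 1 called. The members above solvent at 24 h were mostly in the shallowest part, at 8 of its 24 against 1 of the deepest 24.

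**Figure D3:**
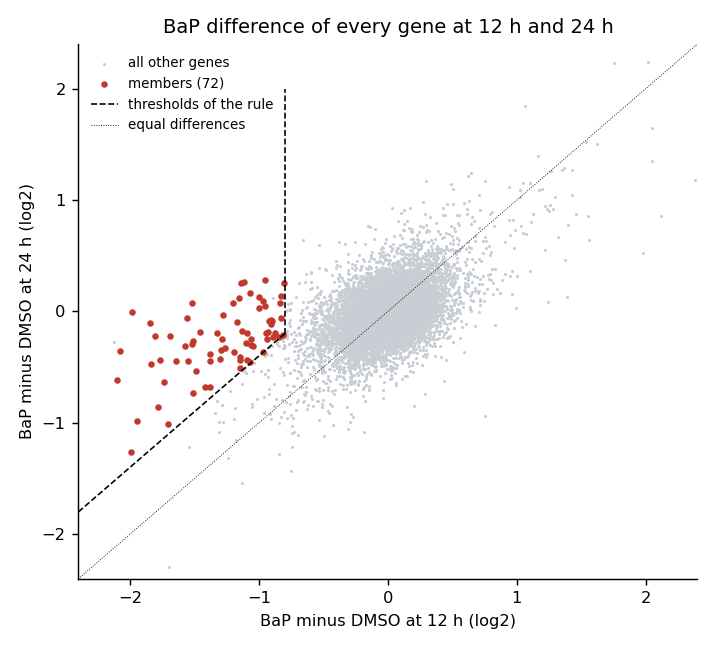
BaP minus DMSO (log2) at 12 h (horizontal) and 24 h (vertical) for every gene; members are red, broken lines mark the thresholds of the rule, the dotted line marks equal differences, and genes beyond 2.4 on either axis are not drawn. The 72 members run from -2.10 to -0.80 at 12 h and from -1.26 to 0.28 at 24 h.

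The highest 24 h values belonged to genes whose treated arrays passed the solvent arrays. ENSG00000234494 read 6.04 and 6.12 in DMSO and 5.32 and 4.93 in BaP at 12 h, then 6.36 and 6.07 in DMSO and 6.59 and 6.41 in BaP at 24 h, a difference of 0.28 ± 0.14 (SE). ENSG00000148677 read 9.41 and 9.23 in DMSO and 8.47 and 7.94 in BaP at 12 h, then 10.01 and 10.14 in DMSO and 10.27 and 10.41 in BaP at 24 h, a difference of 0.26 ± 0.15. ENSG00000167693 read 11.17 and 11.22 in DMSO and 10.40 and 10.39 in BaP at 12 h, then 11.28 and 11.32 in DMSO and 11.55 and 11.56 in BaP at 24 h, a difference of 0.26 ± 0.06. ENSG00000151276 followed at 0.25 ± 0.07. In each of these 4 genes the groups did not overlap at either time and the order of treated and solvent arrays was opposite, but none of the 4 was called higher at 24 h in this fit (with cyclic loess, the dim filter or the trended prior 1 member was).

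The difference between the BaP effects at 24 h and 12 h, the quantity that the rule bounds at 0.6, ranged from 0.60 to 1.97 with a median of 0.95. It was called higher at 24 h in 51 members, where 0.510% of all genes were called so; the rule used this contrast, and nothing is read from the count. The count was lower whichever array was left out. It moved by more than 1.5 times for all arrays but BaP 12 h replicate 1 and DMSO 24 h replicate 1. No share of all genes was computed for these refits, so dependence on an array cannot be told apart from fewer calls in general. After poly-A scaling 1 member was called. The 6 highest differences were those of ENSG00000157985 (1.97 ± 0.12), ENSG00000182621 (1.75 ± 0.20), ENSG00000002822 (1.72 ± 0.12), ENSG00000128512 (1.60 ± 0.18), ENSG00000133812 (1.59 ± 0.18) and ENSG00000151136 (1.50 ± 0.13), each with its SE. ENSG00000128512 read 9.88 and 9.79 in DMSO and 8.53 and 8.11 in BaP at 12 h, then 10.18 and 10.28 in DMSO and 10.39 and 10.22 in BaP at 24 h. Its treated arrays overlapped the solvent arrays at 24 h.

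The difference equals the change between times in BaP minus that in DMSO, and both changes are given here as a description. The rule chose low BaP means at 12 h and bounded the difference, which largely fixes a rise in BaP, so nothing is read from the counts. In BaP the level was higher at 24 h than at 12 h in 72 of 72 members, by 0.06 to 2.24 with a median of 1.22. Limma called 70 of them higher (7.21% of all genes), and in 71 both 24 h arrays lay above both 12 h arrays (22.1% of all genes). In DMSO the changes were smaller, from -0.55 to 1.21 with a median of 0.19 against -0.02 over all genes. Limma called 15 members higher and 1 lower between times in DMSO, where 3.13% and 3.72% of all genes were called. These 16 calls became 8 or 2 when replicate 1 or replicate 2 of DMSO at 12 h was left out, and 4 when DMSO 24 h replicate 2 was. After poly-A scaling the DMSO change of the members had a median of 0.84 (all genes 0.63) and was above 0 in 72 of 72, with 68 called higher. The scaling adds 0.65 to the DMSO change of every gene, and the lowest member value before it was -0.55, so these signs were fixed. The BaP change then had a median of 1.30 (all genes 0.05), with 67 called. The share of all genes called after this scaling was not computed, so nothing is read from these 68 and 67 calls. On the deposited scale the change in BaP was the larger of both in size in 70 members. The BaP mean at 24 h was above the DMSO mean at 12 h in 28 members and below it in 44, with a median difference of -0.09.

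**Figure D4:**
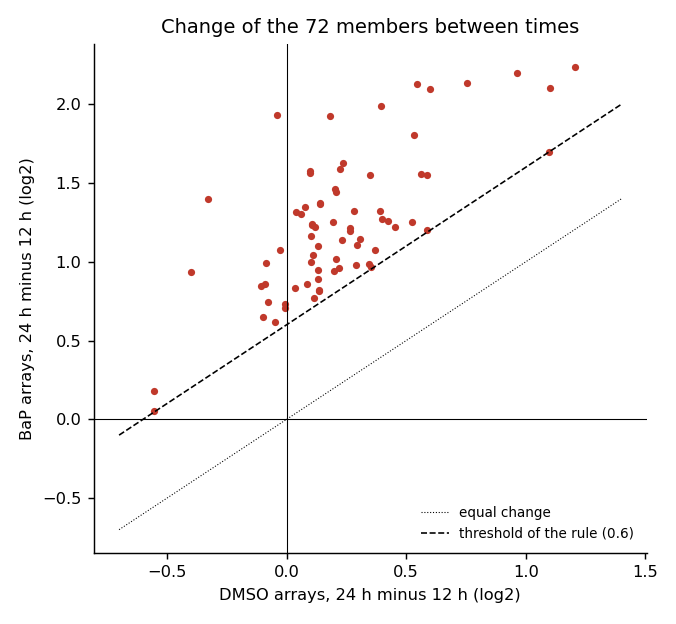
Change from 12 h to 24 h of the 72 members in the DMSO arrays (horizontal) and in the BaP arrays (vertical), in log2 units; the broken line is the threshold of the rule and the dotted line marks equal change. The changes in BaP have a median of 1.22 and those in DMSO a median of 0.19, and 2 genes at the lower left changed more in DMSO.

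The 2 exceptions, named after their values were seen, are ENSG00000184220 and ENSG00000237436. ENSG00000184220 read 10.42 and 10.60 in DMSO and 9.41 and 9.32 in BaP at 12 h, then 9.94 and 9.97 in DMSO and 9.51 and 9.58 in BaP at 24 h. Its solvent level fell by 0.55 between times, the 1 such call among the members, while the change in BaP was 0.18 ± 0.08 and did not pass. ENSG00000237436 read 7.33 and 7.96 in DMSO and 6.57 and 6.78 in BaP at 12 h, then 6.66 and 6.81 in BaP at 24 h, where its solvent arrays had a mean of 7.09 ± 0.13 (SD, n = 2). For these genes the smaller difference at 24 h came mainly from lower solvent values, and the solvent arrays of ENSG00000237436 differed from each other by 0.63 at 12 h.

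At the other end, 3 members rose strongly with time in solvent, and more so in BaP. ENSG00000147408 read 7.69 and 7.50 in DMSO and 6.71 and 6.47 in BaP at 12 h, then 8.61 and 8.99 in DMSO and 8.75 and 8.91 in BaP at 24 h. ENSG00000152818 read 8.08 and 7.92 in DMSO and 7.03 and 7.06 in BaP at 12 h, then 8.96 and 9.26 in DMSO and 9.10 and 9.21 in BaP at 24 h. ENSG00000182022 read 10.45 and 10.22 in DMSO and 9.68 and 9.36 in BaP at 12 h, then 11.38 and 11.48 in DMSO and 11.29 and 11.15 in BaP at 24 h. Their solvent changes were 1.21 ± 0.14, 1.10 ± 0.11 and 1.10 ± 0.12 (SE). In the first and second of them the treated cells reached the raised solvent level at 24 h, with overlapping arrays, although they had been lower at 12 h.

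Member signals in DMSO at 12 h ran from 6.08 to 11.91, above the floor of 5.5 set by the rule; signals of different probe sets do not rank transcripts by abundance. The 4 highest signals were those of ENSG00000059804, ENSG00000117394, ENSG00000167693 and ENSG00000107984. ENSG00000059804 read 12.04 and 11.79 in DMSO and 11.12 and 10.89 in BaP at 12 h, then 12.26 and 12.42 in DMSO and 12.28 and 12.24 in BaP at 24 h. ENSG00000117394 read 11.63 and 11.56 in DMSO and 10.79 and 10.74 in BaP at 12 h, then 12.07 and 12.03 in DMSO and 11.94 and 12.03 in BaP at 24 h. Both had 12 h values near the threshold of the rule (-0.91 and -0.83) and 24 h values near 0 (-0.08 and -0.06).

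The members were part of a larger set of 127 genes that met the 12 h clauses and the level floor, of which they make up 56.7%. The 54 genes of this set outside the difference clause had a median of -0.94 at 12 h and -0.62 at 24 h, and 42 of them were called lower at 24 h (3.09% of all genes). They lie outside that clause because their 24 h values stayed low, so this contrast with the members follows from the rule. Just inside the 12 h threshold were ENSG00000167693 (-0.80), ENSG00000182022 (-0.81) and ENSG00000117394 (-0.83), and just outside were ENSG00000212724 (-0.79), ENSG00000103888 (-0.78) and ENSG00000144036 (-0.78). For the difference, ENSG00000182022 (0.605), ENSG00000237436 (0.610) and ENSG00000110777 (0.610) lay just inside, and ENSG00000038427 (0.599), ENSG00000163032 (0.595) and ENSG00000152894 (0.590) just outside. Values on either side of both thresholds were thus nearly equal.

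Choosing genes on the same arrays that are then described favours extreme values, so the rule was also applied to the 4 arrays of 1 replicate number and the values were read from the other 4. On the replicate 1 arrays it chose 74 genes, of which 61 are members. In the replicate 2 arrays, which took no part in that choice, these 74 genes had a median 12 h value of -1.18, where it was -1.22 on the arrays used to choose. The 12 h value was below 0 in 74 of 74 genes (46.5% of all genes) and at or below -0.8 in 68 (0.821% of all genes). The median difference between times was 0.87, against 0.93 on the arrays used to choose. The difference was above 0 in 71 genes (53.9% of all genes) and at least 0.6 in 56 (1.79% of all genes). The median 24 h value was -0.37, against -0.23 on the arrays used to choose.

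Turned around, the rule chose 79 genes on the replicate 2 arrays, of which 64 are members. Read on the replicate 1 arrays, the 12 h value had a median of -1.05, was below 0 in 79 of 79 genes (44.7% of all genes) and was at or below -0.8 in 63 (0.700% of all genes). The difference between times had a median of 0.89, was above 0 in 79 genes (42.9% of all genes) and was at least 0.6 in 61 (1.26% of all genes). The median 24 h value was -0.22, against -0.20 on the arrays used to choose. In both directions 54 genes met both thresholds on the arrays not used (0.432% and 0.416% of all genes), and these are the 54 genes chosen on each replicate number, all of them members. The equal count and the membership largely follow from the rule. A gene that passes both ways is chosen on each number, and its group means then pass the thresholds too. There is 1 array a group in such a reading, so no test is given, and all 8 arrays were normalised together by the authors. The members were chosen with earlier results of these data known, so neither set of arrays was held out from the rule. These readings describe how alike the replicate numbers are and are no independent check of the members.

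**Figure D5:**
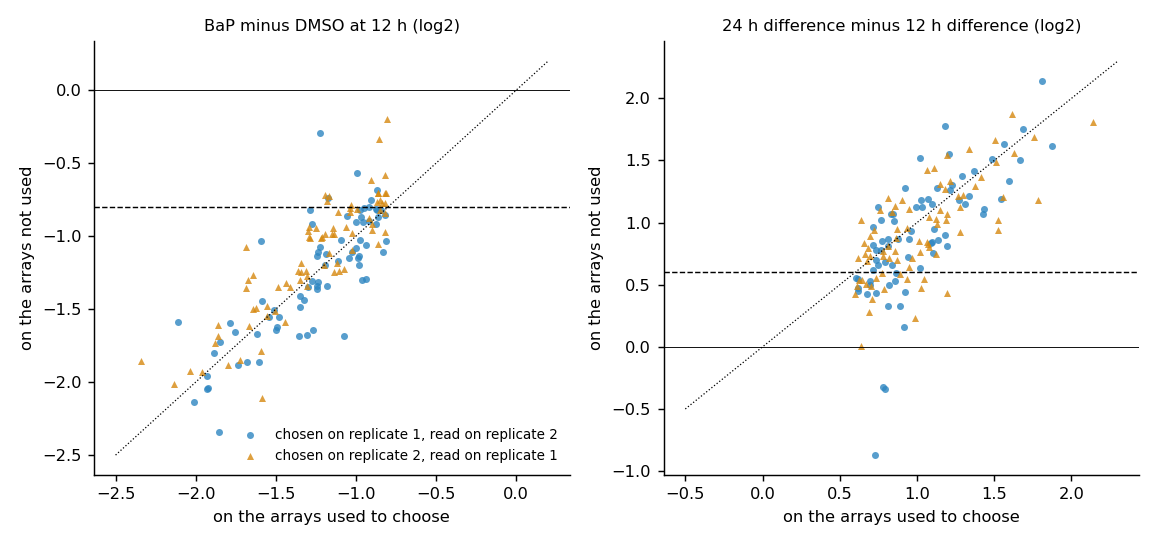
Genes chosen by the rule on the arrays of 1 replicate number (horizontal) and their values on the arrays of the other number (vertical), for the 12 h difference (left) and the difference between times (right), in log2 units; broken lines mark the thresholds. The 12 h values on the arrays not used lie between -2.34 and -0.20, and 3 of the 153 differences between times lie below 0.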

How the data were processed

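The authors deposited log2 expression values whose source, per the submitters' processing notes, is RMA run in R 2.12.2. RMA gives all arrays 1 distribution, which removes a shift common to all transcripts. The probe-to-gene assignment and genome build are not given in the sources used here. Labelled cRNA came from 250 ng total RNA, per the labels' protocols. The authors' deposited table repeats the log2 values (group means identical) and adds limma results with false discovery rates, that is adjusted p-values, per the file headers. Of 19064 probe sets, 19002 are genes and 62 controls.

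The rule was applied to group means. With limma 3.58.1 in R 4.3.3, 1 mean for each group was estimated from the 8 arrays, leaving 4 residual degrees of freedom. The Benjamini-Hochberg adjustment ran over all 19002 genes, with 0.05 as the threshold. No filter on dim genes was used. SEs are limma's moderated ones. Each group has 2 arrays, which limits precision, and p-values measure only the spread between them. The fit was tested on simulated data.

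Members and lists were chosen with earlier results of these data known. By rule, the text names the 10 lowest members at 12 h, the 6 highest differences, the 4 highest and 4 lowest at 24 h, the 4 highest solvent signals and the 3 largest solvent changes, 22 in all, and the 3 genes on each side of each threshold. Gene lists, markers, role groups and promoter motifs given by symbol could not be applied, since the IDs could not be paired. Alternatives were a replicate block, each array left out, cyclic loess, a dim filter, a trended prior, 1 time alone, the authors' table and stricter thresholds of the rule; poly-A scaling was added after the data were seen.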

Additional observations from a re-analysis of the deposited data

Results flagged for a closer look

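By a test of the difference itself, 51 of the 72 members responded differently to BaP at the early and the late time, all with a higher value at 24 h (limma, adjusted p under 0.05), where 0.510% of all genes were called so. The count was 21 to 37 with 1 array left out and 1 after poly-A scaling. The members were chosen for this difference, so the count carries no independent weight.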

How the results depend on the processing

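With 1 array left out, so that its lone partner is assumed to vary like the other groups, 71 to 72 members were called at 12 h, 8 to 20 at 24 h, 21 to 37 for the difference, 69 to 70 between times in BaP and 2 to 19 between times in DMSO. When the rule was applied again without 1 array it chose 67 to 85 genes, with medians of -1.20 to -1.15 at 12 h, -0.27 to -0.22 at 24 h and 0.88 to 0.96 for the difference; without DMSO 24 h replicate 2 it chose 78, of which 71 are members. A threshold of -1 at 12 h left 51 members (12 h median -1.38), and a difference threshold of 0.8 left 50 (12 h median -1.29, difference median 1.10). Cyclic loess, the dim filter, the trended prior, 1 time alone and the authors' table moved no count by more than 1.5 times; 66 members were called for the difference with the trended prior and 64 with the filter. The labels do not say that replicate numbers pair arrays. The headers of the authors' deposited table name the arrays of each group Ex2 and Ex3. These names match no replicate number of the labels, and whether they mark experiments shared across groups is not stated. With the replicate block 72, 25, 55, 70 and 18 members were called in these 5 comparisons, and the correlation of replicate deviations between pairs of groups ran from -0.05 to 0.14.

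After poly-A scaling the median of all genes was 0.47 at 12 h, -0.11 at 24 h and -0.58 for the difference. With it, 16 genes met the rule, and 43, 4, 1, 67 and 68 members were called in the same 5 comparisons. Member medians were -0.71 at 12 h, -0.36 at 24 h and 0.38 for the difference, or -1.18, -0.25 and 0.96 relative to all genes. A shift common to all genes cancels in the values relative to all genes. They are the same as on the deposited scale, and nothing is read from them. Under cyclic loess and under poly-A scaling alike, 72 of 72 members stayed below 0 at 12 h and above 0 for the difference. For the 22 named members, none of the alternatives reversed a called direction, but calls were lost. Their results under all alternatives were classed as the same as in the main fit in 835 cases, weaker in 93 and stronger in 18. With the replicate block, for example, the difference of ENSG00000081803 was no longer called. The rule keeps the 12 h value and the difference well away from 0, which leaves little room for a reversal of these.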
